A study of Mus musculus with 2 samples.

Results

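The sirtuins are the 7 mouse genes *Sirt1* to *Sirt7*, and all 7 were found by symbol among the 21878 genes counted in each library. The tested library came from the liver of an FVB/N mouse model given c-Myc by hydrodynamic injection and treated with TSA, and it was set against a library from the same c-Myc model without treatment (untreated). Hydrodynamic injection is a fast, large-volume tail vein injection that carries DNA into hepatocytes. TSA is the usual short name of trichostatin A, an inhibitor of the zinc-dependent histone deacetylases, although the labels give the abbreviation alone. The c-Myc construct and its promoter, the dose and length of treatment, the age of the mice, the number of animals behind a library and whether tumour or whole liver was taken are not stated by the labels. With 1 library per group there is no replicate spread and no p-value, and the 95% intervals in parentheses come from counting error within a library.

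Sirtuins remove acetyl and longer acyl groups from lysines, and they consume a molecule of nicotinamide adenine dinucleotide (NAD) for each group removed. This sets them apart from the classical histone deacetylases, which use zinc and are the targets of TSA. SIRT1, SIRT6 and SIRT7 work mainly in the nucleus, SIRT2 mainly in the cytosol, and SIRT3, SIRT4 and SIRT5 in mitochondria. In the liver they are known for linking NAD supply to gluconeogenesis, fatty acid oxidation, the urea cycle and glycolysis.

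The promoters of *Sirt1*, *Sirt6* and *Sirt3* are shown because these genes had the lowest and the highest ratios between the libraries. Each window runs from 250 bases before to 50 bases after a RefSeq start on GRCm38.p6, and all 7 genes had at least 1 window in that table. Capitals mark the E-box CACGTG, a sequence that MYC and its partners can bind, the GC box GGGCGG and the ETS-type motif CCGGAAG, each on either strand.
*Sirt1* (chr10:63338986-63339285, minus strand): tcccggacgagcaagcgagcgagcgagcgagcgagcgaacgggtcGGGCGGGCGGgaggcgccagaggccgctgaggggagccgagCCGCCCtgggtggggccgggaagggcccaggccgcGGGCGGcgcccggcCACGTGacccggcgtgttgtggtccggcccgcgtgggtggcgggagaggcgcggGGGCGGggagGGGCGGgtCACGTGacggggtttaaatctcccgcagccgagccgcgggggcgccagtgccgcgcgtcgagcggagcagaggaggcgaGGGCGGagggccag
*Sirt6*, first start (chr10:81627517-81627816, minus strand): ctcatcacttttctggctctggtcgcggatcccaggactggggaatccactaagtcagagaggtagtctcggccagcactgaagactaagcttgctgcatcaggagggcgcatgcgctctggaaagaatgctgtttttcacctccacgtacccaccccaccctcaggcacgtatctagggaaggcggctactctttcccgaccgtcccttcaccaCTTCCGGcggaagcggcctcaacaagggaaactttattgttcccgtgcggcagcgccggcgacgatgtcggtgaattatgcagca
*Sirt3*, first start (chr7:140882260-140882559, minus strand): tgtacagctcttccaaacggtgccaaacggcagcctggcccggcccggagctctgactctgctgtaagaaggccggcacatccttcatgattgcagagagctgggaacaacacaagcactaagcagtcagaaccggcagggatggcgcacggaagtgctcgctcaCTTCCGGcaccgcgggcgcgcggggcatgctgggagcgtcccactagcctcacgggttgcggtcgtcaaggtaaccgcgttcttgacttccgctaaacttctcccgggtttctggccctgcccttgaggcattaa
*Sirt3*, second start (chr7:140881820-140882119, minus strand): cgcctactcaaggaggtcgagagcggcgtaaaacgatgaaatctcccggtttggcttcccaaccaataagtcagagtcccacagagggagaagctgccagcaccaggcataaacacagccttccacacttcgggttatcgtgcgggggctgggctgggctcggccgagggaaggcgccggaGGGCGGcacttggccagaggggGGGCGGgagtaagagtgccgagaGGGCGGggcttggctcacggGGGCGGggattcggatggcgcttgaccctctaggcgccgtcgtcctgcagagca
The *Sirt1* window held 2 E-boxes, which began 115 and 43 bases before the start, and no window of the other 6 genes held one. Of 32851 promoter windows of the same length, 7.15% held at least 1 E-box and 0.594% held at least 2. The *Sirt1* window also held 7 GC boxes, of which a pair shares bases, in a sequence of 79% G and C. A GC box was present in 35.7% of all windows, and 98.6% of windows had a lower G and C content than that of *Sirt1*. The second *Sirt3* start had 4 GC boxes, while the first *Sirt3* start and the first *Sirt6* start each had 1 CCGGAAG and no GC box. The second *Sirt6* start, not shown, had 1 GC box and no CCGGAAG. Of the genes not shown, *Sirt7* had 2 CCGGAAG and 1 GC box, *Sirt2* and *Sirt5* had 1 GC box each, and *Sirt4* had neither motif. CCGGAAG stood in 8.86% of all windows. These matches describe the letters of the window and do not show that a factor was bound in the liver of either group.

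The nuclear sirtuin gene *Sirt1*, for the deacetylase of FOXO factors, PGC-1alpha and p53, had 192 counts in the TSA library and 713 in the untreated one. Its level was 2.87 FPKM (2.48 to 3.31) with TSA and 10.6 FPKM (9.79 to 11.4) without treatment. FPKM is the count per length of the gene model, scaled to the total count of the library, and it is the unit in which levels are compared here. After libraries were scaled by TMM, a method that assumes most genes do not differ, *Sirt1* was 2.03-fold (1.73 to 2.4) lower with TSA. With total counts as the scale it was 3.67-fold (3.13 to 4.33) lower, so its direction held and its size depended on the scale.

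*Sirt6*, for a chromatin-bound deacetylase known to hold down glycolytic genes, went the same way. It had 59 counts with TSA and 222 without, at 1.11 FPKM (0.844 to 1.43) in the TSA library and 4.13 FPKM (3.6 to 4.71) in the untreated library. It was 2.06-fold (1.54 to 2.8) lower with TSA by TMM and 3.72-fold (2.78 to 5.05) lower by total counts. The *Sirt6* ratio is the least precise of the called members because 59 counts lie behind its level with TSA.

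*Sirt7*, for the nucleolar sirtuin that acts on ribosomal RNA transcription and chromatin, stood apart from the other nuclear members. It had 444 counts with TSA and 394 without, or 13.9 FPKM (12.7 to 15.3) in the TSA library and 12.2 FPKM (11.1 to 13.5) in the untreated library. These FPKM intervals overlap. By TMM *Sirt7* was 2.06-fold (1.79 to 2.36) higher with TSA, and by total counts its ratio was 1.14 (0.993 to 1.31) and it was not called.

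*Sirt2*, for the cytosolic sirtuin that deacetylates tubulin and metabolic enzymes, had 897 counts with TSA and 710 without. Its level was 23.7 FPKM (22.2 to 25.3) in the TSA library and 18.5 FPKM (17.2 to 19.9) in the untreated library, and the intervals do not overlap. The ratio was 2.31 (2.09 to 2.55) by TMM, which counts as higher, and 1.28 (1.16 to 1.41) by total counts, which falls short of 2-fold.

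*Sirt3*, for the main deacetylase of the mitochondrial matrix, showed the largest ratio among the 7 genes. It had 1170 counts in the TSA library, more than any other sirtuin in either library, and 582 in the untreated library. Its level was 36.9 FPKM (34.8 to 39) with TSA and 18.1 FPKM (16.7 to 19.7) without. *Sirt3* was 3.67-fold (3.32 to 4.06) higher by TMM and 2.03-fold (1.84 to 2.25) higher by total counts, and it was the sole member called higher on both scales.

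The other mitochondrial members did not follow it. *Sirt4*, for a sirtuin that restrains glutamate dehydrogenase, was scarce in both libraries. It had 85 counts and 1.77 FPKM (1.41 to 2.18) with TSA and 120 counts and 2.47 FPKM (2.05 to 2.95) without. Its ratio was 1.29 (0.967 to 1.72) by TMM and 0.716 (0.536 to 0.954) by total counts, so it had no stable direction. *Sirt5*, for the enzyme that removes succinyl and malonyl groups and acts on carbamoyl phosphate synthetase, had 130 counts and 2.54 FPKM (2.12 to 3.02) with TSA and 322 counts and 6.23 FPKM (5.57 to 6.95) without. Its ratio was 0.737 (0.596 to 0.906) by TMM, which was not called, and by total counts it was 2.45-fold (1.99 to 3.03) lower.

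**Figure D1:**
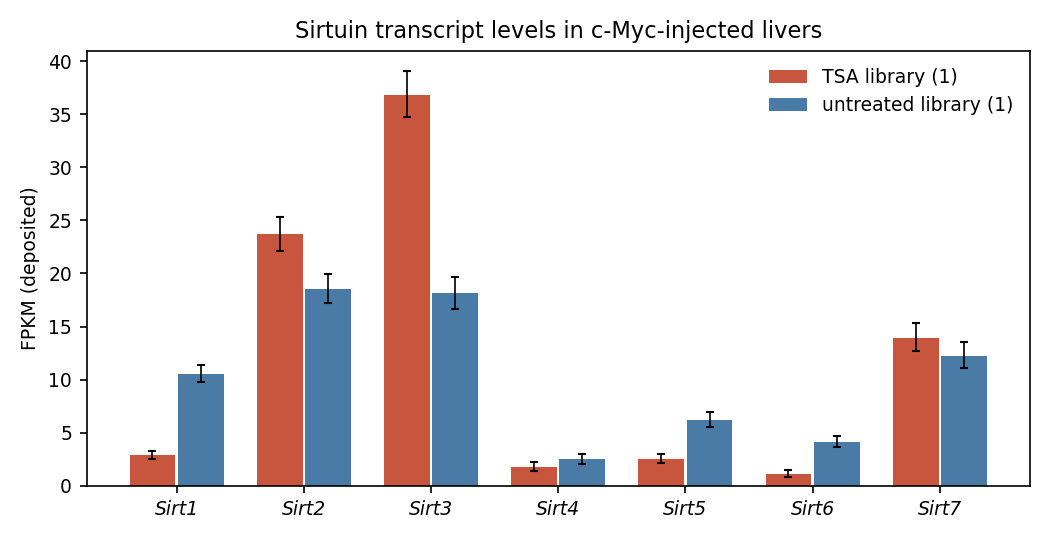
Deposited FPKM of the 7 sirtuin genes in the TSA library and the untreated library (1 library each); error bars are exact 95% Poisson intervals of the counts. *Sirt3* stands highest with TSA at 36.9 FPKM, and *Sirt1*, *Sirt4*, *Sirt5* and *Sirt6* have lower FPKM bars with TSA than without, with overlapping intervals for *Sirt4*.

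Across the family, 3 of 7 genes were higher with TSA and 2 were lower by TMM, with a ratio of at least 2 and an interval that excludes 1 as the rule. By the same rule 26.0% of 13027 genes with at least 20 summed counts were higher and 27.4% were lower. With shares this large, the assumption of TMM that most genes do not differ is not shown to hold here. By total counts 1 sirtuin was higher, against 16.0% of all genes, and 3 were lower, against 48.7% of all genes. The median log2 ratio of the sirtuins was 0.37 by TMM, where the median of all genes was -0.11, and -0.48 by total counts, where it was -0.96. Relative to the median of all genes, a difference that no scaling changes, *Sirt3* stood at 1.99 and *Sirt6* at -0.93 on the log2 scale. A lower ratio than that of *Sirt3* was found in 84.1% of the genes tested, and a lower ratio than that of *Sirt6* in 26.8%. The calls of *Sirt1* and *Sirt6* lie at the edge of the 2-fold rule: both were below it, at 1.89-fold and 1.92-fold lower, with DESeq2 size factors, and at 1.94-fold and 1.97-fold lower with TMM factors from the 13027 genes alone. With DESeq2 size factors 27.6% of all genes were higher and 25.2% lower, and with the TMM factors from the 13027 genes 27.0% were higher and 26.0% lower.

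**Figure D2:**
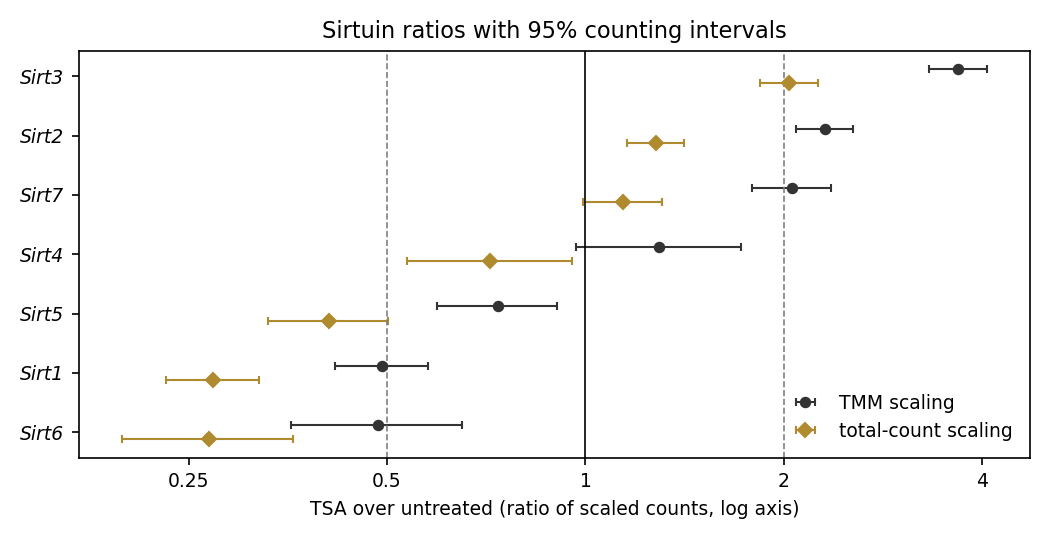
Ratio of scaled counts, TSA over untreated, for each sirtuin on a log axis, with exact 95% counting intervals, under TMM and total-count scaling; dashed lines mark 2-fold. The genes run from *Sirt3* at the top (3.67 by TMM) to *Sirt6* at the bottom (0.485 by TMM), an order that no library scaling can change.

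**Figure D3:**
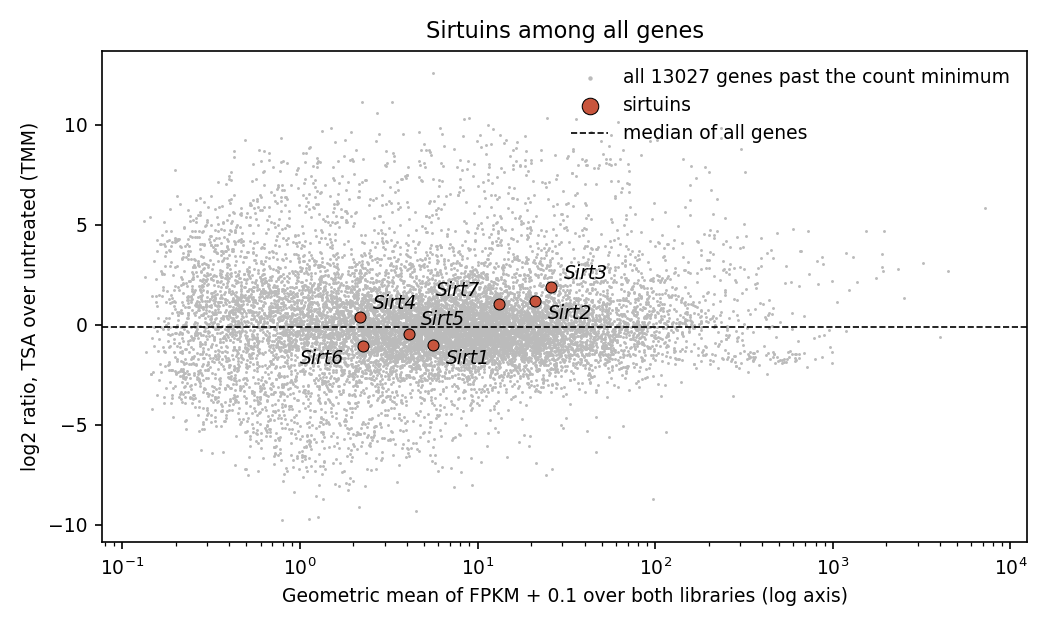
The log2 ratio of TSA over untreated (TMM) of 13027 genes against the geometric mean of FPKM + 0.1 over both libraries, with the sirtuins as large points. The 7 genes lie between -1.04 and 1.88 near the dense centre of the cloud.

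How the sirtuins differed from one another does not depend on library scaling, since any scaling factor cancels between 2 genes of the same libraries. Of 21 pairs of sirtuins, 19 had a ratio between members that differed between the libraries by more than counting error. In 12 the difference was at least 2-fold. The pairs share genes and are not independent, and pairs of other genes were not counted. By TMM 26.0% of all genes were higher and 27.4% lower, so these pair counts may not be particular to the sirtuins. *Sirt3* relative to *Sirt1* was 7.46-fold (6.16 to 9.06) higher with TSA than without, and *Sirt3* relative to *Sirt6* was 7.56-fold (5.54 to 10.4) higher. The ratio of *Sirt1* to *Sirt6* differed between the libraries by 1.01-fold (0.723 to 1.43), and that of *Sirt2* to *Sirt7* by 1.12-fold (0.945 to 1.33), both less than counting error. Members of a compartment differed from one another as well. Among the mitochondrial members *Sirt3* was 2.84-fold (2.09 to 3.86) higher with TSA relative to *Sirt4* and 4.98-fold (3.95 to 6.3) higher relative to *Sirt5*, and *Sirt4* was 1.75-fold (1.22 to 2.51) higher relative to *Sirt5*. Among the nuclear members *Sirt7* was 4.18-fold (3.38 to 5.19) higher with TSA relative to *Sirt1* and 4.24-fold (3.06 to 5.93) higher relative to *Sirt6*.

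The order of levels per length differed between the libraries. With TSA it ran *Sirt3*, *Sirt2*, *Sirt7*, *Sirt1*, *Sirt5*, *Sirt4*, *Sirt6*, with a 4.85-fold step between *Sirt7* and *Sirt1*. The intervals of neighbours overlapped from *Sirt1* down to *Sirt6*. Without treatment it ran *Sirt2*, *Sirt3*, *Sirt7*, *Sirt1*, *Sirt5*, *Sirt6*, *Sirt4*, where the intervals of *Sirt2* and *Sirt3* overlapped, as did those of *Sirt7* and *Sirt1*. The highest sirtuin exceeded the lowest by 33.2-fold in the TSA library and by 7.51-fold in the untreated library. *Sirt3* lay above 88.8% of the genes tested by FPKM with TSA and above 69.2% without, and *Sirt1* above 41.7% with TSA and 56.7% without.

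The summed FPKM of the 7 genes was 82.8 with TSA and 72.3 without. Their summed count, 2977 with TSA and 3063 without, had a ratio of 1.77 (1.69 to 1.87) by TMM and 0.983 (0.934 to 1.03) by total counts, the scale on which FPKM rests. The make-up of the sum does not depend on library scaling. *Sirt3* took 44.5% of it in the TSA library and 25.1% in the untreated library. *Sirt1* took 3.47% with TSA and 14.6% without, *Sirt5* 3.07% with TSA and 8.62% without, *Sirt6* 1.34% with TSA and 5.71% without, and *Sirt4* 2.13% with TSA and 3.41% without. *Sirt7* held 16.8% with TSA and 16.9% without, and *Sirt2* 28.6% with TSA and 25.6% without. By compartment the mitochondrial genes made up 49.7% with TSA and 37.1% without, and the nuclear genes 21.7% with TSA and 37.2% without. Summed over the compartment, the mitochondrial genes had a count ratio of 2.47 (2.28 to 2.68) by TMM and 1.37 (1.26 to 1.48) by total counts. The nuclear genes had one of 0.954 (0.87 to 1.05) by TMM, less than counting error, and of 0.529 (0.482 to 0.58) by total counts. Of raw sirtuin counts *Sirt3* took 39.3% with TSA and 19.0% without.

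**Figure D4:**
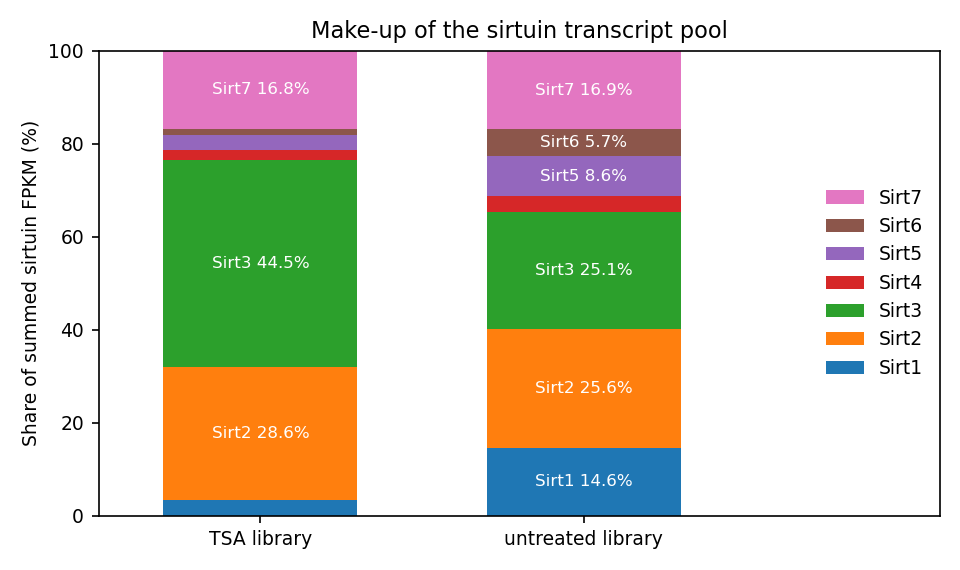
Share of each sirtuin in the summed FPKM of the family (percent, bars stacked to 100) in the TSA library and the untreated library. The *Sirt3* block is 44.5% of the bar with TSA and 25.1% without, and the *Sirt1*, *Sirt4*, *Sirt5* and *Sirt6* blocks are narrower with TSA.

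Levels between genes rest on the gene model lengths behind the deposited FPKM. These were 1857 bases for *Sirt3*, 1863 for *Sirt7*, 2217 for *Sirt2*, 2815 for *Sirt4*, 2992 for *Sirt5*, 3113 for *Sirt6* and 3910 for *Sirt1*. The longest transcript in GENCODE M21 is longer for *Sirt3*, at 3206 bases, and shorter for *Sirt6*, at 1891 bases. With the longest transcripts as lengths *Sirt2* came before *Sirt3* in the TSA library, with 24.8 FPKM for *Sirt2* and 21.4 FPKM for *Sirt3*, and the *Sirt3* share was 33.2% with TSA and 16.3% without. With these lengths *Sirt1* had rank 6 with TSA, *Sirt7* had rank 5 in the untreated library, and the highest sirtuin exceeded the lowest by 13.6-fold with TSA and by 5.01-fold without. Ratios between the libraries do not change with length.

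By position, *Sirt2* and *Sirt3* lie on chromosome 7, and *Sirt1* and *Sirt6* lie on chromosome 10. *Sirt4* is on chromosome 5, *Sirt5* on 13 and *Sirt7* on 11. Of 18 overlapping or adjacent genes that the files list, 15 had enough counts, of which 5 were lower with TSA, 0 higher and 10 neither, where 27.4% of all genes were lower and 26.0% higher. The lower neighbours were *Nfkbib* and *Rinl* beside *Sirt2*, *Nol7* beside *Sirt5*, *Tle6* beside *Sirt6* and *Pycr1* beside *Sirt7*.

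In 4 cases a gene on the opposite strand starts within 1000 bases of a sirtuin start. *Psmd13*, for a proteasome subunit, starts 341 bases from *Sirt3* and had 27.9 FPKM with TSA and 61.5 without. Its ratio was 0.818 (0.749 to 0.892), while that of *Sirt3* was 3.67. *Nfkbib*, for an inhibitor of NF-kappaB, starts 777 bases from *Sirt2* and was 2.15-fold (1.87 to 2.47) lower with TSA. *Dnajc12* starts 739 bases from *Sirt1*, at a ratio of 0.553 (0.434 to 0.699), and *Ankrd24* starts 743 bases from *Sirt6*, at 1.19 (0.89 to 1.59). *Psmd13* and *Ric8a* overlap *Sirt3*, *Nfkbib* overlaps *Sirt2*, and *Mafg* overlaps *Sirt7* on the same strand. In GENCODE M21 *Gm16145* overlaps *Sirt1* and *Mir6936* overlaps *Sirt7*, and neither is among the genes counted. The labels name no strand setting and no rule for shared reads. The counts of *Sirt1*, *Sirt2*, *Sirt3* and *Sirt7* may thus hold reads of overlapping genes. The overlapping genes that were counted had lower ratios than the sirtuin they overlap, with *Ric8a* at 0.834 (0.732 to 0.95) and *Mafg* at 1.67 (1.55 to 1.79).

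The genes whose FPKM lay closest to a sirtuin in both libraries, by distance on the log2 scale with 0.1 added, share 2 measurements with it and no more. *Eid1* matched *Sirt1* at a distance of 0.000909, with 2.88 FPKM with TSA and 10.6 without, and *Pex19* matched *Sirt3* at 0.0234, with 36.8 FPKM with TSA and 18.4 without. The next closest were *Rwdd2b* for *Sirt1* and *Atg3* for *Sirt3*. For *Sirt2* they were *Tnfrsf1a* and *Smpd1*, for *Sirt4* *Synj1* and *Rab31*, and for *Sirt5* *Klc2* and *Cep95*. For *Sirt6* they were *Rab3il1* and *Rcor3*, and for *Sirt7* *Ppm1a* and *Nr5a2*. *Sirt1* had 16 genes within a distance of 0.1 and *Sirt3* had 3.

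By TMM, genes of both routes to NAD were higher with TSA more often than lower, where 26.0% of all genes were higher and 27.4% lower. By total counts, where 16.0% of all genes were higher and 48.7% lower, this held for the tryptophan route alone. In the salvage pathway, which rebuilds NAD from nicotinamide and related precursors, 4 of 7 tested genes were higher and 0 lower by TMM, and 1 was higher and 1 lower by total counts. *Nampt*, for its rate-limiting enzyme, had 38.5 FPKM with TSA and 27 without and was 2.57-fold (2.43 to 2.72) higher, or at a ratio of 1.43 by total counts. *Naprt*, for the enzyme that uses nicotinic acid, was 8.07-fold (7.18 to 9.08) higher and *Nmnat1*, for the nuclear enzyme that forms NAD, 2.96-fold (2.41 to 3.65) higher. The fourth was *Nt5e*, picked out with its value known. In the route from tryptophan 7 of 8 genes were higher on both scales, *Ido2*, counted 4 times in the untreated library, with 13.5 FPKM with TSA and 0.0292 without and *Tdo2* with 522 FPKM with TSA and 2.16 without, and *Qprt*, picked out with its value known, was neither. The 7 include *Acmsd*, picked out with its value known, whose enzyme diverts the route away from NAD. It had 357 counts with TSA and 0 without, and the lower bound of its ratio was 176. Its log2 ratio was 7.76 with the untreated count set at 3. *Nmnat2* and *Nmrk2* had too few counts to test. The median log2 ratio by TMM was 1.18 for salvage and 5.32 for the tryptophan route, where that of all genes was -0.11.

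Genes of enzymes that compete for NAD went in both directions. Of 11 tested genes of poly(ADP-ribose) polymerases and NAD hydrolases, 6 were higher and 4 lower by TMM, and 3 higher and 5 lower by total counts, against 26.0% higher and 27.4% lower of all genes by TMM and 16.0% and 48.7% by total counts. *Parp1*, the DNA damage sensor and a large consumer of NAD, had 14.3 FPKM with TSA and 114 without and was 4.43-fold (4.13 to 4.74) lower. *Sarm1*, for an NAD hydrolase, was 19.1-fold (8.62 to 52.6) lower on 6 counts with TSA, and *Parp9* was 12.4-fold (10.6 to 14.4) higher. *Parp2* and *Tnks2*, which were lower too, are named with their values known. Genes of nicotinamide clearance, NADP synthesis and NAD transport were not split: of 8, 5 were higher and 0 lower by TMM, and 4 and 0 by total counts. The median log2 ratio by TMM was 1.20 for the NAD consumers and 1.87 for the clearance list. *Nnmt*, for the enzyme that methylates nicotinamide, the product that inhibits sirtuins, had 931 counts with TSA and 3 without, a ratio of 566 (193 to 2751), and *Aox3* was 151-fold (115 to 203) higher. The rest of the higher genes here, *Aox1*, *Slc25a51* and *Nudt12*, are named with their values known. *Nadk* had the highest level of this list, 86.8 FPKM with TSA and 84.4 without, and was not called.

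Among 9 partners and regulators of SIRT1, 1 gene was higher and 4 were lower by TMM, and 1 was higher and 7 lower by total counts. Of all genes 26.0% were higher and 27.4% lower by TMM, and 16.0% were higher and 48.7% lower by total counts. *E2f1*, whose product can activate *Sirt1* transcription, was 5.85-fold (4.36 to 8.01) lower, and *Ctbp1*, for a corepressor, 2.32-fold (2.14 to 2.51) lower. *Prkaa2*, for a catalytic subunit of AMPK, was 3.96-fold (3.66 to 4.29) higher. *Elavl1* and *Prkaa1* were also lower and are named with their values known. The median log2 ratio of this list was -0.98 by TMM, where that of all genes was -0.11 and *Sirt1* itself stood at -1.02. A link between *Sirt1* and the list was not tested, and every list here was chosen with earlier results of these data known.

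Genes of known sirtuin substrates went in both directions. Of 21 nuclear and cytosolic substrates 8 were higher and 4 lower by TMM, against 6 and 8 by total counts, beside 26.0% higher and 27.4% lower of all genes by TMM and 16.0% and 48.7% by total counts. *Acss2*, for the cytosolic acetyl-CoA synthetase that SIRT1 activates, was 12.8-fold (11.6 to 14.2) higher and *Pck1*, for the gluconeogenic PEP carboxykinase, had 1654 FPKM with TSA and 5.15 without. The lower genes, *Trp53*, *Xrcc6*, *Suv39h1* and *G6pdx*, are named with their values known. Of 22 substrates of the mitochondrial sirtuins 10 were higher and 2 lower by TMM, against 7 and 6 by total counts. *Acss1*, for the mitochondrial acetyl-CoA synthetase that SIRT3 activates, went against *Sirt3*: it had 0.456 FPKM with TSA and 56.8 without and was 69.1-fold (47.7 to 104) lower. *Uox*, for urate oxidase, had 818 FPKM with TSA and 4.77 without, and *Atp5a1*, for an ATP synthase subunit, had a ratio of 0.88 (0.864 to 0.896). *Ppif*, the other lower gene of this list, was picked out with its value known. By TMM the median log2 ratio was 0.48 for the nuclear and cytosolic substrates and 0.98 for the substrates of the mitochondrial sirtuins. A transcript level says nothing of whether the protein was deacetylated.

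Of 8 glycolytic genes that SIRT6 is known to repress 4 were higher and 1 lower by TMM. By total counts 3 were higher and 3 lower, and a link to *Sirt6* was not tested. *Pdk4* had 206 FPKM with TSA and 0.285 without and *Ldhb* 3.14 FPKM with TSA and 0.577 without, while *Ldha*, the most abundant, was the lower gene with 196 FPKM with TSA and 1069 without. *Aldoc* and *Pfkm* were higher as well and are named with their values known. Of the 11 classical histone deacetylase genes 3 were higher and 3 lower by TMM, against 0 and 5 by total counts, beside 3 and 2 of the 7 sirtuins by TMM. The deacetylase counts lie near the shares of all genes, 26.0% higher and 27.4% lower by TMM and 48.7% lower by total counts, other than the 0 higher by total counts, where the share is 16.0%. *Hdac1* was 3.69-fold (3.27 to 4.18) lower and *Hdac11* 3.13-fold (2.78 to 3.53) higher. Named with their values known, *Hdac7* and *Hdac9* were also higher and *Hdac2* and *Hdac6* also lower. By TMM the median log2 ratio was 0.99 for the glycolytic list and -0.06 for the histone deacetylases.

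**Figure D5:**
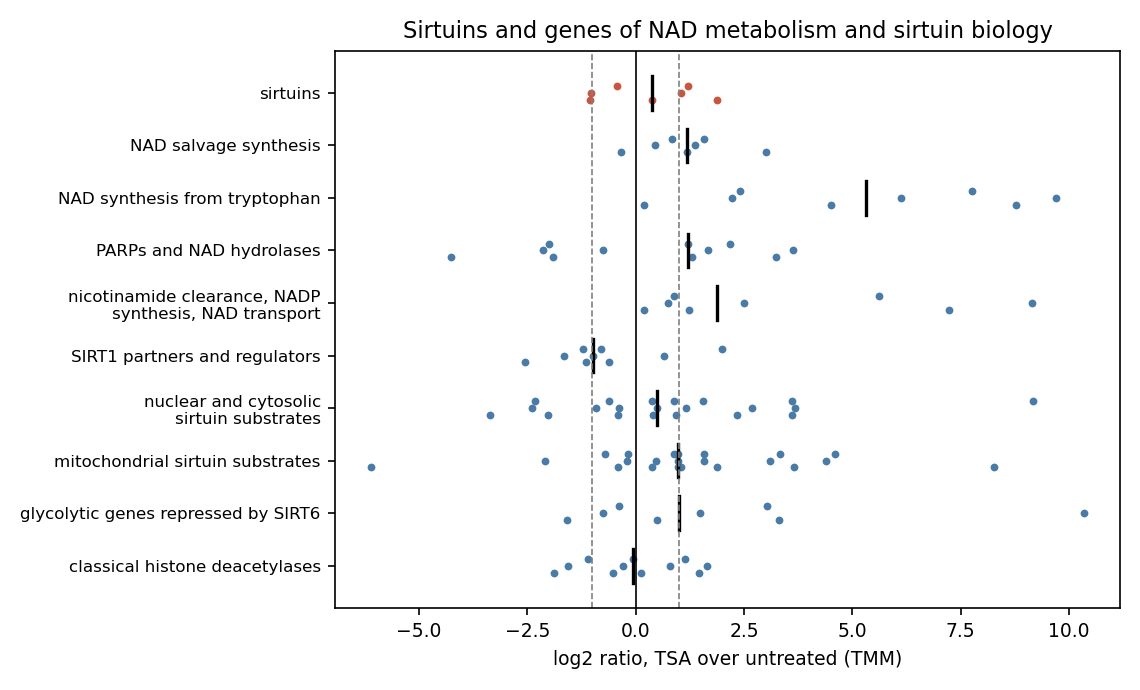
The log2 ratio of TSA over untreated (TMM) of every gene tested in the sirtuin list and 9 related lists; each point is 1 gene, black bars are list medians and dashed lines mark 2-fold. The sirtuins, with a median of 0.37, are spread over both sides of 0, and the list of NAD synthesis from tryptophan has the highest median, 5.32.

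The libraries held 17088227 counts with TSA and 17281523 without, and the levels of cell type markers differed between them. All 8 hepatocyte markers were detected in both libraries and, by TMM, higher with TSA, at a summed 56734 FPKM with TSA and 3768 without, and all 6 proliferation genes were lower, at a summed 26.8 FPKM with TSA and 592 without. Of sinusoidal endothelial markers 6 of 7 were higher (summed 123 FPKM with TSA and 21.5 without), and of macrophage markers 5 were higher and 2 lower (234 FPKM with TSA and 483 without). Of 7 stellate cell markers 4 were higher and 1 lower (106 FPKM with TSA and 53.8 without), and of 5 cholangiocyte markers 3 were higher and 2 lower (22.6 FPKM with TSA and 37.4 without). Higher markers numbered 4 of 6 for lymphocytes (5.78 FPKM with TSA and 4.29 without), 2 of 2 for neutrophils (9 FPKM with TSA and 3.13 without) and 4 of 4 for erythroid cells (420.3 FPKM with TSA and 149.7 without). These marker counts are by TMM, where 26.0% of all genes were higher and 27.4% lower. By total counts 16.0% were higher and 48.7% lower. On that scale higher and lower markers numbered 7 and 0 for hepatocytes, 5 and 0 for sinusoidal endothelium and 3 and 2 for macrophages. For stellate cells they numbered 3 and 2, for cholangiocytes 2 and 2 and for lymphocytes 3 and 1. The neutrophil, erythroid and proliferation numbers were the same on both scales. Enough counts to test were found for 6 of 8 lymphocyte, 2 of 6 neutrophil, 4 of 6 erythroid and 5 of 6 cholangiocyte markers. *Cftr*, *Ly6g* and *Hba-a2* had 0 counts with TSA, and *Ly6g* and *Elane* had 0 without. The part of these shifts in the sirtuin ratios was not tested, and in bulk liver fewer cells of a type and less RNA per cell cannot be told apart.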

How the data were processed

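PolyA RNA from mouse liver was sequenced, 1 library per group, and groups follow the treatment label. The submitters' processing notes list Trimmomatic, HISAT2, Bowtie2 and DESeq, with neither version nor role. No source used here gives the build, annotation or counter. The authors deposited unscaled counts, as whole reads by gene symbol, per the file headers. The FPKM values, also deposited, equal those counts divided by gene length and library total, with whole gene model lengths (within 0.1 base) for all 14271 genes counted in both libraries.

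Counts were scaled by TMM over all genes (edgeR 4.0.16, R 4.3.3), with factors of 0.744 (TSA) and 1.34 (untreated). TMM over all genes was settled on as the main scaling after its values and those over genes past the count minimum had been seen. Ratios are TSA over untreated, with exact conditional binomial 95% intervals (Clopper-Pearson); intervals of levels are exact Poisson and those of pairs are from conditional odds ratios. All cover counting error alone, and reads that carry no molecular identifier are not independent molecules. Genes with at least 20 summed counts entered, and the calls require a ratio of at least 2 and an interval excluding 1. A count of 0 was set to 3 for list medians. The calling was tested on simulated data. These held counting error alone at the TMM scaling, so they test neither the choice of scaling nor variation between animals. DESeq2 1.42.0 size factors and other alternatives are given at the end. Ratios and figures were made in Python 3.11.15 (scipy 1.17.1, numpy 2.4.6, pandas 2.3.3, matplotlib 3.10.9).

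The members and lists were chosen with earlier results of these data known, and the motifs after the promoter sequences had been seen. Named genes are the sirtuins; from every list the 2 genes farthest from a ratio of 1 and the gene of highest mean FPKM, where summed counts reached 50; the overlapping and adjacent genes in GENCODE M21 (GRCm38); and the 2 genes closest in FPKM. Promoters are from RefSeq.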

Additional observations from a re-analysis of the deposited data

How the results depend on the processing

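With 1 library per group no library could be left out, and variation between animals is not measured. No paired analysis was possible because each group has 1 library. Of 49 recomputed log2 ratios of single sirtuins, 35 stayed within the counting interval of the reported value and 14 moved beyond it. Among the called genes 0 changed sign. The 14 were every sirtuin with total counts and again with FPKM plus 0.1, which rests on the same scale. The 35 came from settings with scaling close to TMM, which could move a ratio little, so their number is not a measure of stability. The 3 sirtuins called higher became 1 with total counts and with FPKM plus 0.1, 2 where the interval bound had to reach 2-fold (without *Sirt7*), and 0 at a 4-fold threshold. The 2 called lower became 0 with DESeq2 size factors, with TMM factors from genes past the count minimum (chosen after seeing the data), at a 4-fold threshold and where the interval bound had to reach 2-fold. The median log2 ratio of the sirtuins was 0.37 as reported, 0.48 with DESeq2 size factors, -0.48 with total counts and -0.46 with FPKM plus 0.1. The *Sirt3* share was 39.3% (37.5 to 41.1) of sirtuin counts with TSA and 19.0% (17.6 to 20.4) without, and 33.2% and 16.3% of FPKM with the longest GENCODE M21 transcripts as lengths, which was chosen after seeing the data. Of 216 recomputed counts for the other lists, 185 lay within 1.5 times the reported count. These include counts of 0 that stayed at 0.

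Total counts move the median of all genes by -0.85 on the log2 scale from TMM, and the share of calls that are higher is 48.6% with TMM and 24.7% with total counts. Depth limits *Sirt6*, *Sirt4* and *Sirt5* most, at 59, 85 and 130 counts with TSA.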
